A study of Mus musculus with 6 samples.

Results

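The genes described here are 37 genes of meiosis and of spermatocytes, the germ cells that carry it out. They were chosen by symbol and are measured by 56 of the 45281 probes of an Illumina mouse bead array, whose annotation names 19057 genes in all. RNA came from Sertoli cells, the somatic nurse cells of the seminiferous tubule, of mice aged 6 weeks on a C57B6J/129SvEv background, sorted by a Sox9-GFP label. The Rb cKO group (Rb1 flox/-; Amh-Cre +) had 3 arrays. Its Cre recombinase is driven by the Amh promoter, active in Sertoli cells, and deletes the floxed allele of the retinoblastoma gene Rb1. The Control group (Rb1 flox/-, no Cre) also had 3 arrays, so both groups carry a null Rb1 allele. Because Rb cKO alone has Cre, the recombinase and the loss of Rb1 cannot be told apart. Whether replicates were separate animals is not in the labels, and p-values here measure no more than the spread among the 6 samples, part or all of which may be technical.

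In meiosis, homologous chromosomes are cut, aligned along a protein axis and joined by the synaptonemal complex, and some of the cuts are repaired as crossovers. Spermatocytes also make piRNAs, small RNAs that guide the silencing of transposons, and switch on germ cell forms of metabolic enzymes and chaperones. Sertoli cells do not enter meiosis, but each holds spermatocytes and spermatids in close contact.

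Transcripts of 29 of the 37 genes were detected on all 6 arrays, in Rb cKO and Control samples alike. A probe counted as detected where its scanner score exceeded 0.95, and was tested where it was detected on at least 3 arrays. Each gene is described by its brightest tested probe. Of the 56 probes, 37 (66.1%) were detected on all 6 arrays, against 38.0% of all probes on the array, and 13 on none, against 40.5% of all probes. The 8 genes with no tested probe, each detected on 0 arrays, were Sycp3 and Tex12 of the synaptonemal complex, the axis gene Hormad1, the break formation gene Mei4, the recombinase gene Dmc1, Mael and Tex15 of transposon silencing, and the sperm surface gene Adam2. A probe not above background gives only a bound on the level. In bulk RNA, fewer cells of a type and less RNA per cell cannot be told apart.

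None of the 29 tested genes passed the test for a difference between Rb cKO and Control. By limma with an adjusted p below 0.05 as the limit, 0 of 29 were higher and 0 lower, against 0.195% of all 12277 tested genes higher and 0.0% lower. Without the adjustment the count was 0 as well, against 5.96% higher and 1.81% lower. The difference, Rb cKO minus Control in log2 normalised intensity, was above 0 for 25 genes (86.2%), against 61.3% of all tested genes. Its median was 0.37 over the 29 genes and 0.12 over all tested genes, and it ran from -0.74 for Sycp2 to 1.29 for Mov10l1. These counts rest on the brightest probe. Of all 39 tested probes of these genes, 29 had a difference above 0. The median over the 39 was 0.34, against 0.08 over all tested probes. The ranges of the 2 groups overlapped in all 29 genes, whereas 9.56% of all tested genes lay wholly higher in Rb cKO and 4.33% wholly lower. The 95% confidence interval of the difference included 0 for each gene and reached beyond 1, which is a doubling, for 21 of them, and for those genes a rise of that size is within the error.

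**Figure D1:**
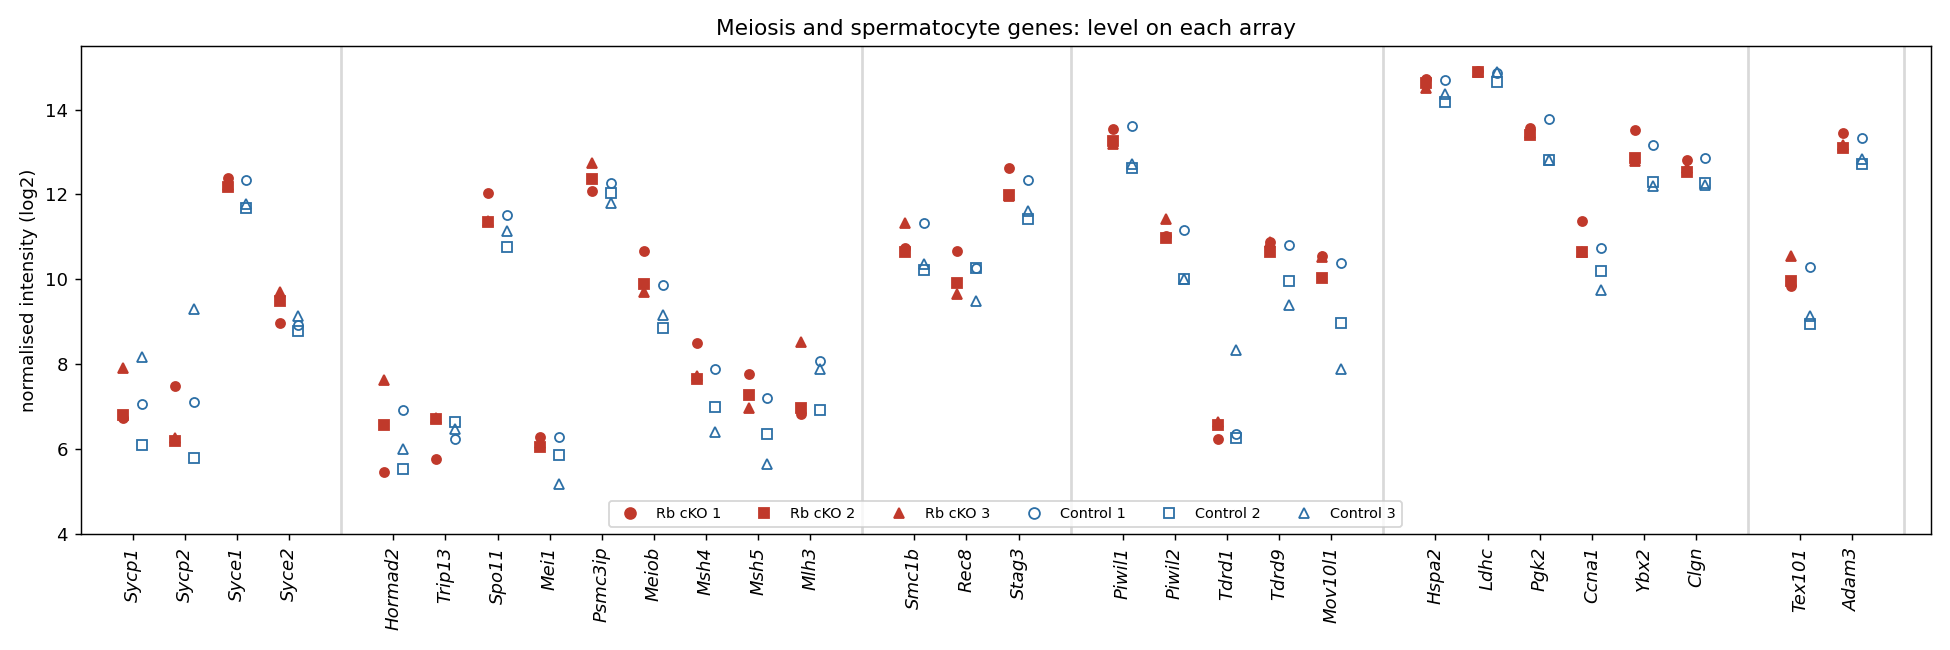
Normalised intensity (log2) of the brightest tested probe of each of the 29 tested genes, with filled symbols for the 3 Rb cKO arrays and open symbols for the 3 Control arrays, ordered by role from the synaptonemal complex at left to surface proteins at right. The groups overlap for every gene, and Control replicate 1 reaches the lowest Rb cKO array in 27 of the 29 genes. That count was not taken over all tested genes. Levels of different probes are not comparable.

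Some properties of the samples bear on all of these values. Sox9, a defining Sertoli cell gene, read 11.82, 11.75 and 11.48 in Rb cKO replicates 1 to 3 and 11.83, 12.20 and 12.20 in Control replicates 1 to 3, and Amh was detected on 5 of the 6 arrays. Rb1 probe ILMN_2679619 read 8.24, 7.73 and 7.44 in Rb cKO against 9.10, 9.34 and 8.64 in Control samples, or -1.22 ± 0.32 (SE, adjusted p 0.399 in limma). Probe ILMN_2861644 gave -0.98 ± 0.34 (adjusted p 0.668 in limma), and whether either lies inside the deletion was not analysed here. Rb cKO replicate 1 and Control replicate 3 stood apart, at -113.86 and 110.17 on a first principal component with 58.9% of the variance, while the other arrays lay between -34.27 and 31.36.

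The synaptonemal complex is the protein ladder that zips homologous chromosomes together. Its 4 tested genes had a median difference of 0.18, and 3 were above 0. Syce2, a gene of the central element, read 8.97, 9.48 and 9.70 in Rb cKO replicates 1 to 3 and 8.93, 8.79 and 9.13 in Control replicates 1 to 3. Rb cKO replicates 2 and 3 lay above all Controls and replicate 1 lay among them. The means were 9.38 ± 0.37 in Rb cKO and 8.95 ± 0.17 in Control samples (SD, n = 3 each), and the difference of 0.43 ± 0.29 (SE, 95% interval -0.24 to 1.11) had an adjusted p of 0.766 in limma. Syce1, also of the central element, stood at 12.40, 12.17 and 12.23 in Rb cKO and 12.35, 11.67 and 11.78 in Control samples. Control replicate 1 was as high as the Rb cKO arrays and the other Controls were lower, with a difference of 0.33 ± 0.28 and an adjusted p of 0.769 in limma. Sycp1, which forms the transverse filaments, differed by 0.04 ± 0.57.

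Sycp2, a gene of the lateral element, gave opposite answers with its 2 tested probes. The brighter probe, ILMN_2440514, was at 7.49, 6.20 and 6.27 in Rb cKO and 7.10, 5.79 and 9.30 in Control samples, a difference of -0.74 ± 0.85 (adjusted p 0.799 in limma). Control replicate 3 was far above the other 5 arrays, and without it the difference was 0.21. The dimmer probe, ILMN_1257018, read 6.70, 5.60 and 5.76 in Rb cKO and 5.56, 4.80 and 4.88 in Control samples. All its Rb cKO values lay above all its Control values, and the difference was 0.94 ± 0.39. Its p in limma was 0.0436 before adjustment, a level that 4.63% of all tested probes passed on the higher side and 1.76% on the lower, and 0.762 after it. This probe was singled out after its values were seen.

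Genes of the chromosome axis, of double-strand breaks and of recombination had a median difference of 0.39 over 9 tested genes, with 7 above 0. The 3 with the smallest p act in recombination. Msh5 and Msh4, MutS homologues that work as a pair on crossover intermediates, had similar profiles. Msh5 read 7.78, 7.28 and 6.96 in Rb cKO and 7.20, 6.35 and 5.64 in Control samples, a difference of 0.94 ± 0.44 (95% interval -0.09 to 1.98, adjusted p 0.766 in limma). Msh4 was at 8.50, 7.65 and 7.72 in Rb cKO and 7.89, 7.00 and 6.41 in Control samples, a difference of 0.86 ± 0.44 (adjusted p 0.766 in limma). In both genes Control replicate 1 lay inside the Rb cKO range and the other Controls below it.

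Meiob, which binds single-stranded DNA during recombination, read 10.67, 9.89 and 9.71 in Rb cKO and 9.87, 8.85 and 9.17 in Control samples. Again only Control replicate 1 reached the Rb cKO range, and the difference was 0.79 ± 0.39 (95% interval -0.11 to 1.70, adjusted p 0.766 in limma). Spo11, the enzyme that makes the meiotic breaks, differed by 0.45 ± 0.33, Psmc3ip, which helps strand invasion, by 0.37 ± 0.29, and Mei1, needed for break formation, by 0.38 ± 0.33. Hormad2, a protein of the unpaired axis, gave 0.39 ± 0.60. Trip13, the ATPase that removes such proteins from the axis, gave -0.04 ± 0.34, and Mlh3, a MutL homologue of crossovers, -0.19 ± 0.53.

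The 3 meiotic cohesin subunits, which hold sister chromatids together, had differences above 0 that did not pass the test. Stag3 was at 12.63, 11.98 and 11.97 in Rb cKO and 12.35, 11.43 and 11.62 in Control samples, or 0.39 ± 0.35 (adjusted p 0.771 in limma). Smc1b read 10.74, 10.64 and 11.32 in Rb cKO and 11.32, 10.22 and 10.36 in Control samples, or 0.26 ± 0.38 (adjusted p 0.832 in limma). Rec8 stood at 10.66, 9.92 and 9.66 in Rb cKO and 10.27, 10.27 and 9.50 in Control samples, or 0.07 ± 0.37 (adjusted p 0.963 in limma). Control replicate 1 was as high as the top Rb cKO array for Smc1b, and for Rec8 both groups spanned almost the same range. The Rec8 difference was -0.22 without Rb cKO replicate 1, -0.19 without Control replicate 3 and -0.48 without both.

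The sequence before these genes is shown because the Rb protein binds members of the E2F family of transcription factors. The 250 bases before the annotated start were searched on both strands for the E2F core TCCCGC in the 37 RefSeq promoter windows (GRCm38.p6) of the 30 members that have one. The core occurred in 14 windows (37.8%), of 11 genes, against 16.9% of all 32851 windows. The longer E2F site TTTCCCGC, which contains the core, occurred in 3 windows (8.11%), of Msh5, Syce2 and Sycp3, against 0.895% of all windows, and TTTGGCGC in 0, against 0.417%. Such a match is a description of letters and shows no binding. Of the 11 genes with the core 6 were tested, with a median difference of 0.40, and of the 19 with a window but no core 18 were tested, with a median of 0.34. The windows of the 3 cohesin genes, of Msh5 and of Sycp3, which was detected on 0 arrays, are given 5′ to 3′ on the strand of the gene, with the core on either strand in capitals. The Stag3 window holds 0 matches to the core and has no capitals, and each of the others holds 1.
Stag3 (chr5:138280259-138280508, plus strand): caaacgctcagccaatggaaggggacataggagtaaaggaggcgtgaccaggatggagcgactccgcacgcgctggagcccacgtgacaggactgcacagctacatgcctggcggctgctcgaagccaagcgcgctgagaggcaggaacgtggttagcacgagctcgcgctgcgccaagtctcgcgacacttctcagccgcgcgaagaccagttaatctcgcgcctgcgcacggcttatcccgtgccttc
Smc1b (chr15:85131958-85132207, minus strand): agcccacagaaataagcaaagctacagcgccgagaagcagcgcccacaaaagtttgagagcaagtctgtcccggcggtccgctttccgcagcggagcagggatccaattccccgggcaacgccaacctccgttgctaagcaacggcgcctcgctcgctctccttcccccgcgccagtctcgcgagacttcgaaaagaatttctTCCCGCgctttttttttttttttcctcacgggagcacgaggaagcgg
Rec8 (chr14:55617916-55618165, plus strand): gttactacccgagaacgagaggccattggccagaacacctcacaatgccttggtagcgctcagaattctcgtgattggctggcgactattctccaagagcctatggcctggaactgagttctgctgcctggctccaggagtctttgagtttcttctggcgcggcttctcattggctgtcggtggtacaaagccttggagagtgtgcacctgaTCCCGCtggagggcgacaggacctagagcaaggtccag
Msh5 (chr17:35046623-35046872, minus strand): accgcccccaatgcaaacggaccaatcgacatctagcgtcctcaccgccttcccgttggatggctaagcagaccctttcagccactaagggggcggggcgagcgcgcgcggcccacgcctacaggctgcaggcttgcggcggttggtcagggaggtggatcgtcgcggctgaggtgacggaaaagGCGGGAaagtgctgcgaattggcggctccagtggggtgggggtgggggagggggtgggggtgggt
Sycp3 (chr10:88459337-88459586, plus strand): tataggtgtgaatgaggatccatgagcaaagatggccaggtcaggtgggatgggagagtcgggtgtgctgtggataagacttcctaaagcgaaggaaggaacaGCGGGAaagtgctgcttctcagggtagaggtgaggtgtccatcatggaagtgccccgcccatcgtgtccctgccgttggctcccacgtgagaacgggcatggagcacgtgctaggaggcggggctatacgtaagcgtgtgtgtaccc

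In the piRNA pathway 5 of 7 genes were tested, with a median difference of 0.73 and 4 above 0. Mov10l1, a helicase of the early steps of piRNA production, had the largest difference of the 29 genes. It read 10.55, 10.04 and 10.53 in Rb cKO replicates 1 to 3 and 10.39, 8.98 and 7.88 in Control replicates 1 to 3. Control replicate 1 lay among the Rb cKO arrays and the other Controls lay lower. The means were 10.38 ± 0.29 in Rb cKO and 9.08 ± 1.25 in Control samples (SD, n = 3 each), and the difference of 1.29 ± 0.59 (95% interval -0.10 to 2.69) had an adjusted p of 0.766 in limma. It was 1.95 without Control replicate 1 and 0.69 without Control replicate 3.

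Piwil2, the PIWI protein also called MILI, was at 11.03, 10.98 and 11.42 in Rb cKO and 11.16, 10.02 and 10.00 in Control samples, or 0.75 ± 0.38 (adjusted p 0.766 in limma). The helicase gene Tdrd9 was at 10.88, 10.64 and 10.87 in Rb cKO and 10.82, 9.97 and 9.40 in Control samples, or 0.73 ± 0.39 (adjusted p 0.766 in limma). In both, as in Mov10l1, Control replicate 1 lay inside the Rb cKO range and the other Controls below it. Both probes of Piwil1, the PIWI protein also called MIWI, gave similar differences, 0.34 and 0.43. Tdrd1, a Tudor protein that binds PIWI proteins, read 6.25, 6.58 and 6.65 in Rb cKO and 6.36, 6.26 and 8.34 in Control samples, or -0.49 ± 0.56. Its high value was that of Control replicate 3, without which the difference was 0.18.

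**Figure D2:**
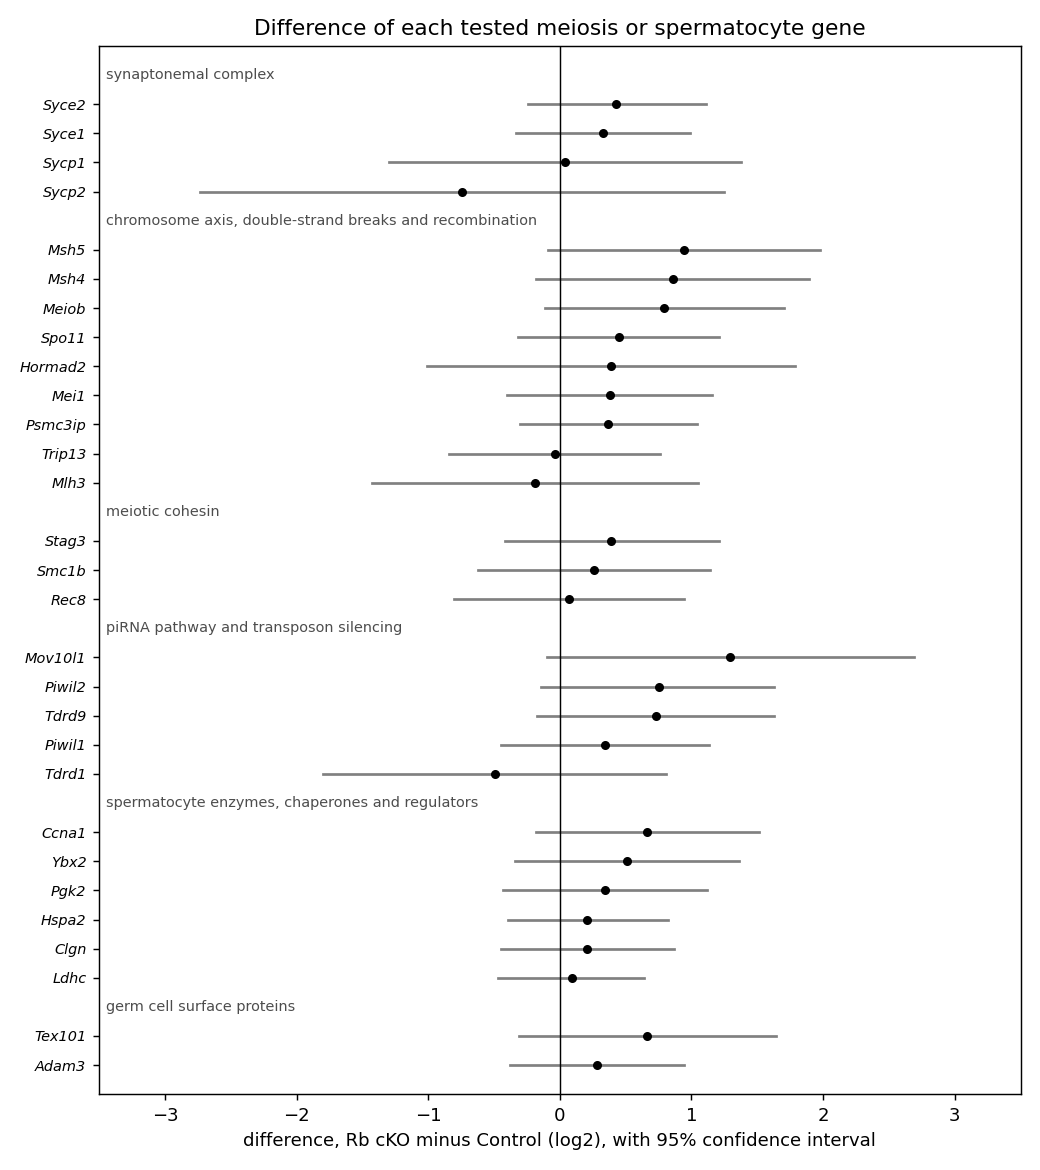
Difference between Rb cKO and Control arrays (log2, points) with its 95% confidence interval from limma (lines) for the 29 tested genes, by role. Points lie above 0 for 25 genes, and every interval includes 0.

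All 6 enzymes, chaperones and regulators of spermatocytes were tested and had differences above 0, with a median of 0.28. Ccna1, a cyclin needed for the male meiotic divisions, was at 11.37, 10.64 and 10.65 in Rb cKO and 10.73, 10.19 and 9.74 in Control samples, or 0.66 ± 0.36 (adjusted p 0.766 in limma). Ybx2, which binds and stores germ cell messages, read 13.52, 12.87 and 12.80 in Rb cKO and 13.17, 12.29 and 12.21 in Control samples, or 0.51 ± 0.36 (adjusted p 0.766 in limma). Pgk2, the germ cell form of phosphoglycerate kinase, stood at 13.56, 13.40 and 13.46 in Rb cKO and 13.77, 12.81 and 12.81 in Control samples, or 0.34 ± 0.33 (adjusted p 0.782 in limma). In these 3 genes only Control replicate 1 reached the Rb cKO arrays, and for Pgk2 it was the highest of the 6. Hspa2, a chaperone of spermatocytes, differed by 0.21 ± 0.26, and Clgn, a chaperone of sperm surface proteins, by 0.21 ± 0.28.

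Ldhc, the lactate dehydrogenase of germ cells, lay at the top of the measured range. Its brightest probe read 14.90, 14.88 and 14.88 in Rb cKO and 14.86, 14.66 and 14.89 in Control samples, where the highest normalised value of any probe was 14.9. The difference was 0.09 ± 0.24, at levels where the scale leaves little room above. Among the surface proteins, the germ cell protein Tex101 was at 9.84, 9.95 and 10.56 in Rb cKO and 10.28, 8.94 and 9.13 in Control samples, or 0.66 ± 0.42 (adjusted p 0.766 in limma). Adam3, a sperm adhesion protein, read 13.46, 13.09 and 13.17 in Rb cKO and 13.33, 12.71 and 12.83 in Control samples, or 0.28 ± 0.28 (adjusted p 0.785 in limma). Control replicate 1 was again the Control that reached the Rb cKO arrays in both.

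The same Control array recurred across the roles. Control replicate 1 was at or above the lowest Rb cKO array in 27 of 29 genes, Control replicate 2 in 5 and Control replicate 3 in 8. The same count was not taken over all tested genes, so it is no trait of these genes alone. The mean over the 29 genes, relative to the Control mean, was 0.42, 0.21 and 0.44 in Rb cKO and 0.43, -0.32 and -0.11 in Control samples, replicates 1 to 3 each. Control replicate 1 was therefore level with the Rb cKO arrays in these genes. Over all tested genes the means were 0.16, 0.13 and 0.05 in Rb cKO and 0.09, 0.08 and -0.18 in Control samples. Without Control replicate 1 the median difference of the 29 genes was 0.63. Then 10 of 29 genes, all higher in Rb cKO, had an unadjusted p under 0.05 in limma, against 11.5% of all tested genes on that side. After adjustment in limma 0 passed. This array was picked out by its values in these same genes, so the change without it is no support for a difference. The median was 0.20 without Control replicate 2 and 0.26 without Control replicate 3. In each of these 0 member genes had an unadjusted p under 0.05 in limma. The median was 0.21 without both Rb cKO replicate 1 and Control replicate 3.

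Arrays that share a replicate number deviated together from their group means, with correlations of 0.262, 0.41 and 0.473, so differences within same-numbered pairs were also taken. Correlations between arrays of different numbers are not given here, and what a shared number stands for is not in the labels. All 3 pairs were above 0 for 14 of 29 genes (48.3%) and all 3 below 0 for 0, against 30.5% and 14.0% of all tested genes. Within pairs 1 to 3 Msh5 differed by 0.58, 0.94 and 1.32, and Msh4 by 0.61, 0.65 and 1.31. Meiob differed by 0.80, 1.04 and 0.55 and Ccna1 by 0.63, 0.44 and 0.91. With the replicate block these 4 genes, 13.8% of the 29, had an unadjusted p under 0.05 in limma, all higher, against 11.1% of all tested genes higher and 5.02% lower. None passed after adjustment, and the lowest adjusted p, that of Msh5, was 0.245 in limma. Pair 1 was below 0 with pairs 2 and 3 above it in 10 genes, from -1.47 for Hormad2 and -1.25 for Mlh3 through Smc1b, Trip13, Tex101, Pgk2, Psmc3ip, Piwil2 and Piwil1 to -0.04 for Clgn. This pattern was not counted over all tested genes.

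**Figure D3:**
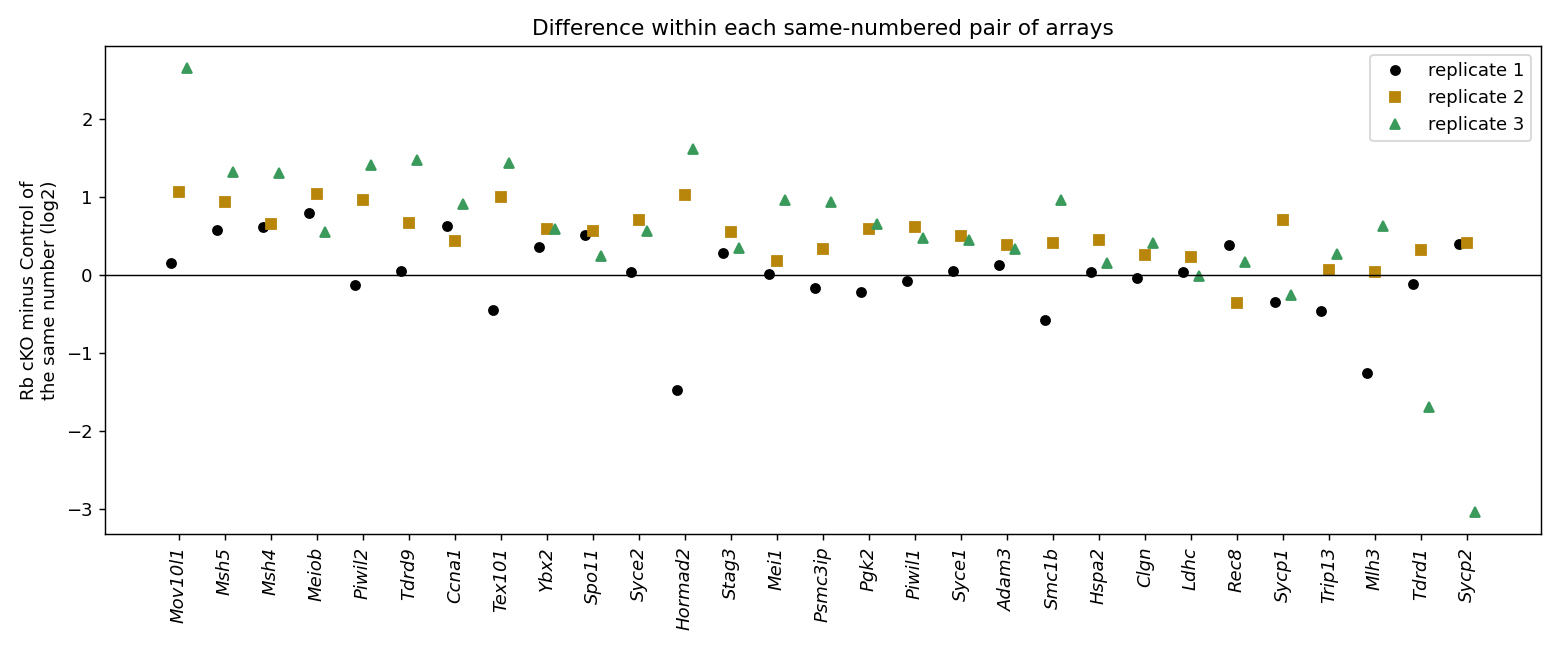
Difference between the Rb cKO and Control arrays of the same replicate number (log2), with a symbol for each of the 3 pairs, for the 29 tested genes ordered by the difference of the group means. All 3 symbols lie above 0 for 14 genes and below 0 for none, and pair 3 of Sycp2 is the lowest, at -3.03.

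Probes of the same gene often disagreed. Of the 8 genes with several tested probes, 7 had probes whose differences had opposite signs or sizes more than 2 times apart, and Piwil1 was the exception. This rule takes no account of the errors. Its share over all genes with several tested probes was not taken, so the count is no trait of these genes. Ldhc probe ILMN_2665749 read 9.70, 13.09 and 14.08 in Rb cKO and 13.66, 13.16 and 14.26 in Control samples, a difference of -1.40 ± 1.03 in which Rb cKO replicate 1 was far below the other arrays. Ldhc probe ILMN_1248952 was at 14.02, 14.33 and 14.41 in Rb cKO and 14.32, 14.21 and 14.30 in Control samples, a difference of -0.03. Hspa2 probe ILMN_3140383 was also lowest on Rb cKO replicate 1, at 11.44, 12.68 and 13.37 in Rb cKO and 13.00, 12.54 and 12.67 in Control samples (-0.24 ± 0.49), while the brighter probe ILMN_1223285 was highest there, at 14.73, 14.63 and 14.52 in Rb cKO and 14.69, 14.18 and 14.37 in Control samples.

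Ybx2 probe ILMN_1241788 read 10.78, 12.13 and 12.66 in Rb cKO and 12.98, 11.44 and 11.28 in Control samples (-0.04 ± 0.62). Rb cKO replicate 1 was its lowest array, and the highest of the brighter probe. Msh5 probe ILMN_2992653 was lowest there too, at 4.84, 6.17 and 6.91 in Rb cKO and 6.77, 5.96 and 5.26 in Control samples (-0.02 ± 0.60), whereas probe ILMN_1241923 followed the brightest one, at 7.47, 6.73 and 6.33 in Rb cKO and 6.95, 6.55 and 5.05 in Control samples (0.66 ± 0.55).

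For Spo11 the brighter probe read 12.04, 11.34 and 11.38 in Rb cKO and 11.52, 10.77 and 11.13 in Control samples, and the dimmer probe 6.60, 6.98 and 7.16 in Rb cKO and 8.98, 6.87 and 6.27 in Control samples (-0.46 ± 0.66). Here the odd value was that of Control replicate 1 on the dimmer probe. The 2 Clgn probes differed in size and not in sign. The dimmer one was at 11.93, 11.27 and 11.44 in Rb cKO and 11.48, 10.19 and 10.39 in Control samples (0.86 ± 0.40), and the brighter one at 12.82, 12.54 and 12.63 in Rb cKO and 12.87, 12.28 and 12.23 in Control samples.

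**Figure D4:**
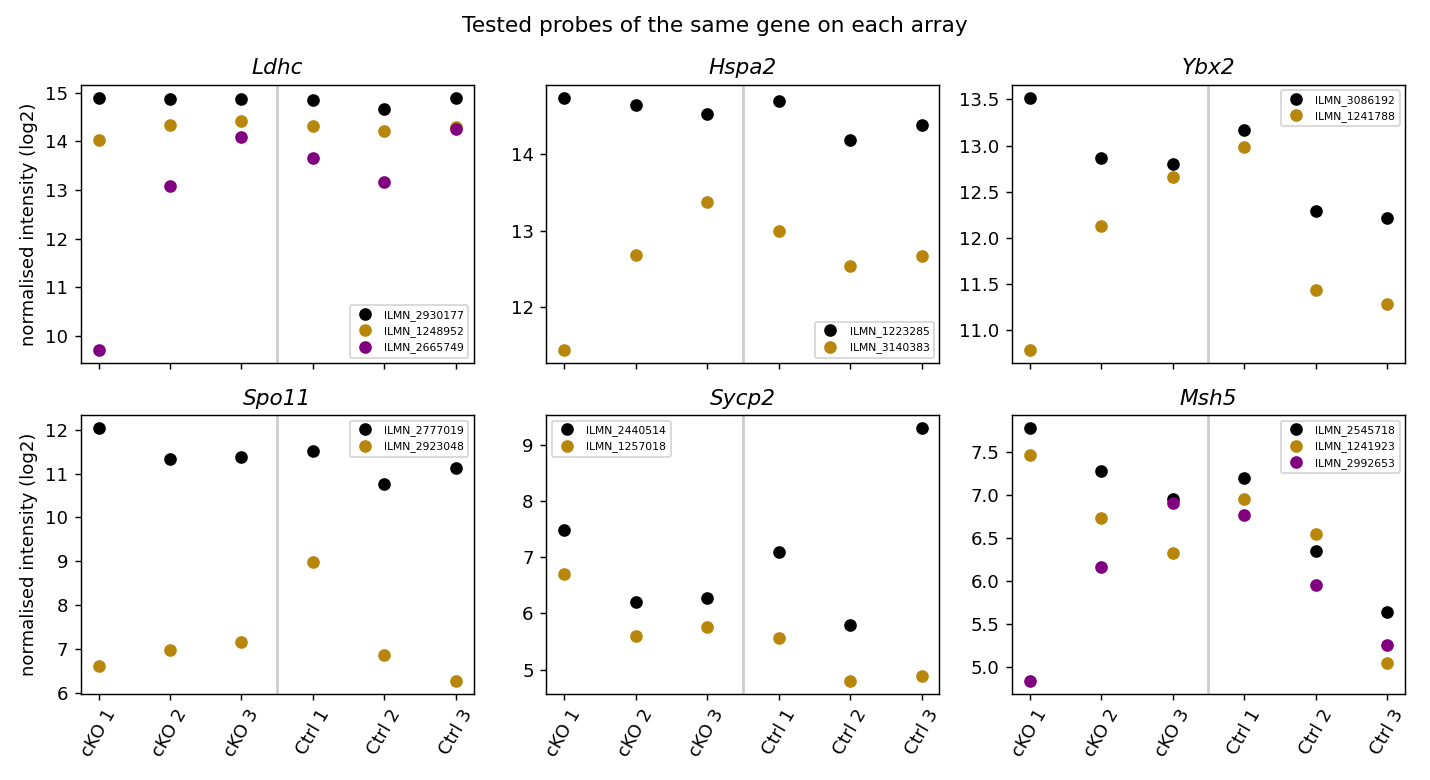
Normalised intensity (log2) of each tested probe of 6 genes on the 3 Rb cKO arrays and the 3 Control arrays, with a colour for each probe. In Ldhc, Hspa2, Ybx2 and Msh5 the probe that is low on Rb cKO replicate 1 is matched by another probe of that gene that is not; in Sycp2 the same holds for a high value on Control replicate 3.

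Further genes of the same pathways, taken from lists, also gave no call. Of 33 other meiosis genes 23 were tested, 0 passed in either direction and the median difference was 0.46, against 0.12 over all tested genes. At an unadjusted p under 0.05 in limma 3 of the 23 were higher and 0 lower, against 5.96% and 1.81% of all tested genes. Above 0 were 15 (65.2%), close to the 61.3% of all tested genes. The smallest p belonged to the repair gene Brca1 at 0.95 ± 0.30, to Mnd1, the partner of Psmc3ip, at 1.25 ± 0.49 and to Rec114, of break formation, at 0.94 ± 0.38, with adjusted p of 0.59, 0.736 and 0.76 in limma. Of 16 other piRNA pathway genes 12 were tested, 0 passed in either direction, 10 (83.3%) were above 0 and the median was 0.47. None of the 12 had an unadjusted p under 0.05 in limma. The smallest p there were those of Tdrd12 at 0.92 ± 0.43, the germ cell helicase Ddx4 at 0.55 ± 0.30 and Gtsf1 at 0.46 ± 0.28, each with an adjusted p of 0.766 in limma.

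Markers of other germ cell stages and of somatic cells are given beside these values, and their part in them was not tested. Spermatid markers had a median difference of 0.42 over 20 tested genes, 16 of them above 0. Their means per array were 0.15, 0.33 and 0.44 in Rb cKO and 0.53, -0.20 and -0.33 in Control samples, so Control replicate 1 was high here as well. The protamine gene Prm1 was near the top of the range, at 14.86, 14.80 and 14.79 in Rb cKO and 14.90, 14.90 and 14.72 in Control samples. Spermatogonia markers had a median of 0.68 over 11 tested genes, 9 of them above 0, and means per array of 0.91, 0.34 and 0.46 in Rb cKO and 0.13, 0.06 and -0.19 in Control samples. Of their defining genes Zbtb16 was detected on 0 arrays and Kit on all 6.

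Sertoli cell markers ran the other way, with a median of -0.43 over 21 tested genes, 19 of them below 0. Their means per array were -1.17, -0.41 and -0.19 in Rb cKO and -0.20, 0.06 and 0.14 in Control samples. The mean on Rb cKO replicate 1 includes Inha at 5.42 and Trf at 4.57, which read at least 9.92 and 7.77 on the other arrays. These were not the only low markers. Amh, Fshr, Dhh, Gata4, Gata1, Nr5a1, Dmrt1, Sox8, Cldn11 and Cst12 were also lowest on Rb cKO replicate 1. Gdnf, Rhox5, Aard, Shbg, Tjp1, Gja1 and Dnajc15 were not, and Ctsl tied there with Control replicate 1. Sox9 was not lowest on Rb cKO replicate 1 either, at 11.82 against 11.48 to 12.20 on the other arrays. Among the Controls, replicate 1 had the lowest mean of Sertoli cell markers and the highest mean of meiosis and spermatocyte genes. Leydig cell markers had a median of 1.26 over 5 tested genes and means per array of 1.70, 0.59 and 0.80 in Rb cKO and -0.29, 0.07 and 0.23 in Control samples. Peritubular, leukocyte and endothelial markers had medians of 0.84, 0.69 and 1.15 over 6, 8 and 8 tested genes. Means per array of endothelial markers were 1.85, 0.72 and 1.22 in Rb cKO and 0.22, 0.19 and -0.41 in Control samples, those of peritubular markers 0.51, 0.48 and 1.18 in Rb cKO and 0.10, 0.15 and -0.25 in Control samples, and those of leukocyte markers 0.76, 0.64 and 0.66 in Rb cKO and 0.27, 0.29 and -0.56 in Control samples. Ptprc, which defines leukocytes, was detected on 0 arrays, while 6 of the 8 tested leukocyte markers were detected on all 6. No gene of the 7 marker lists passed in limma in either direction. The lowest adjusted p was 0.0514 in limma, just above the limit, for the endothelial marker Robo4 at 3.69 ± 0.47. This is its brightest probe, and values of its 2 other tested probes are not given here. The other tested endothelial markers ran from 0.39 to 1.39. Without the adjustment, 16 of the 79 tested markers (20.3%) would be counted higher and 2 (2.53%) lower, against 5.96% and 1.81% of all tested genes.

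**Figure D5:**
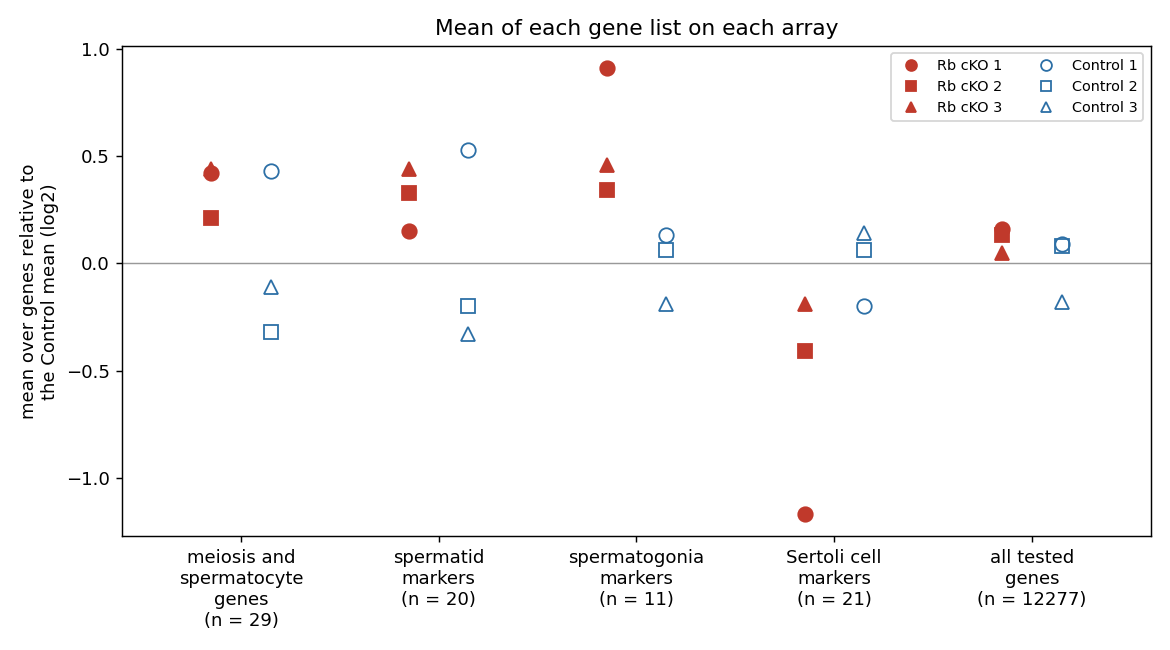
Mean over the genes of each list on each array, relative to the mean of the 3 Control arrays (log2), with filled symbols for Rb cKO and open symbols for Control. Control replicate 1 is level with the Rb cKO arrays for meiosis and spermatocyte genes, at 0.43, and above them for spermatid markers, at 0.53, and Sertoli cell markers are lowest on Rb cKO replicate 1, at -1.17.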

How the data were processed

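RNA of 3 Rb cKO and 3 Control samples was measured, 1 array each. Per the file headers, the deposited scanner tables give each probe's mean intensity, a detection score, the SD between beads (an intensity too) and how many beads were read. BeadStudio is the only tool that the submitters' processing notes name. A score above 0.95 corresponds to a detection p-value below 0.05, per the file headers. The authors' series table holds deposited log2 values. They equal the log2 of the intensity less that array's 75th percentile, with each probe then centred on its median over the arrays, so scale, centring and direction are known. This joined all 45281 probe IDs to the scanner rows within 0.0004. Column medians were 0.244, -0.022 and -0.194 in Rb cKO and 0.04, 0.098 and -0.301 in Control samples. The platform annotation names 1 gene for 34885 probes, several for 18 (not used) and none for 10378.

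Background correction and quantile normalisation of the intensities used neqc (offset 16) of limma 3.58.1 in R 4.3.3. The 21805 probes detected on at least 3 arrays were fitted with lmFit and eBayes, group as the only term, two-sided, with Benjamini-Hochberg adjustment over all of them. The number of arrays limits the precision. Per-array values are given for up to 3 genes of each role with the smallest p and for genes whose probes disagree; Tdrd1 was added after its values were seen. The members and lists were chosen with earlier results of these data known, so no p over a list is given. Same-numbered arrays correlated above 0.1 in all 3 pairs, and the number, taken from the titles, served as a block in an alternative. The 15 alternatives concern background correction, scaling, the deposited values, the filter, the probe set, the block and arrays left out.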

Additional observations from a re-analysis of the deposited data

How the results depend on the processing

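No meiosis or spermatocyte gene passed the threshold under any of the 15 alternatives, and the lowest adjusted p in limma was 0.245 (Msh5, replicate block). Their median difference ran from 0.20 to 0.63, and 23 to 31 genes were above 0, the highest count being of the 37 genes tested without a filter. Over the whole array, the 31 probes called higher became 9 with normexp (offset 50), 13 when the background was not corrected, 1 when dim probes were kept, 56 with 1 probe per gene, 0 with the replicate block (3257 at an unadjusted p under 0.05, in either direction), 6 without Rb cKO replicate 1 and Control replicate 3, and 0 to 15 with single arrays left out. They were 8, 2 and 15 without Rb cKO replicates 1 to 3, and 0 without each Control (2622, 1058 and 874 at an unadjusted p under 0.05). Probes called lower numbered 0 in limma throughout, with 383 at an unadjusted p under 0.05. Of 435 differences of the 29 genes, 17 changed sign, in 7 genes that had not passed. The 435 include alternatives that changed only the filter, the probe set or the block. Those left each difference as it was, so no sign could change there. Sycp1 was -0.0033 with normexp. With single arrays left out, the difference ran from -0.47 to 0.56 for Sycp1, -1.54 to 0.21 for Sycp2, -0.15 to 0.94 for Hormad2, -0.21 to 0.28 for Trip13, -0.73 to 0.12 for Mlh3, -0.22 to 0.27 for Rec8 and -0.86 to 0.18 for Tdrd1. Without both arrays that stood apart, Trip13 was at 0.29, Mlh3 at 0.24, Rec8 at -0.48 and Tdrd1 at 0.30. The cause was not tested. The standard error from beads, taken on each array before background correction, was at most 0.137 (log2) for the 29 probes. The standard error of the difference between groups, taken on normalised values, had a median of 0.36. These are different quantities.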

Other observations

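The gap between probes of the same gene differed by array well beyond the meiosis and spermatocyte genes. For each of 4247 genes with at least 2 tested probes, the log2 gap between the 2 brightest was set against its median over the 6 arrays. It was off by more than 1 for 24.4%, 2.71% and 8.78% of these genes on Rb cKO replicates 1 to 3, and for 1.41%, 2.87% and 19.1% on Control replicates 1 to 3. The arrays with the highest shares, Rb cKO replicate 1 and Control replicate 3, are those that stood apart on the first principal component. The gap was wider by more than 1 for 17.7% of genes on Rb cKO replicate 1 and for 5.42% on Control replicate 3. Among the 8 meiosis and spermatocyte genes with several tested probes it was off by more than 1 for Spo11, Hspa2 and Ybx2 on Rb cKO replicate 1, at 1.16, 1.59 and 1.95, for Spo11 on Control replicate 1, at -1.74, and for Sycp2 on Control replicate 3, at 3.53.

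Of the 29 tested meiosis and spermatocyte genes, Rb cKO replicate 1 was the highest array for 15 and Rb cKO replicate 3 for 8, and Control replicates 2 and 3 were the lowest for 13 and 12. Over all tested genes, Rb cKO replicates 1 and 3 were highest for 39.7% and 10.5%, and Control replicates 2 and 3 lowest for 9.69% and 43.8%. The factor A-MYB acts in spermatocytes, and the promoter windows were also searched for MYB sites on both strands. At least 1 of CAACTG or CAACGG, or of the same letters that begin with T in place of C, occurred in 14 of 37 member windows (37.8%) and in 23.7% of all windows. The cAMP response element TGACGTCA occurred in 0 of the 37, against 1.55% of all windows. These are descriptions of letters, with no test.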
